A study of Homo sapiens with 8 samples.

Results

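The cytosolic ribosomal protein genes were taken from the deposited gene table by symbol: names beginning RPL or RPS followed by a number, with an optional A, X, L, AL or L1, together with RPLP0, RPLP1, RPLP2 and RPSA. This gave 82 genes of 13471 in the table. By symbol alone, 51 (RPL) were taken as genes of the large (60S) subunit and 31 (RPS) as genes of the small (40S) subunit. Their RNA was measured in immunoprecipitates (IP) of hnRNP U, a nuclear protein also called SAF-A that binds RNA and chromatin, and in RNA of cells without IP. The cells were hTERT-RPE1, a human cell line from retinal pigment epithelium that telomerase has made immortal. All groups were first blocked with thymidine at 2 mM for 24 h, which stalls DNA replication. The interphase groups were taken from that block, and the mitotic groups were released into medium without thymidine for 6 h and then left with STLC overnight, a drug against the kinesin Eg5 that arrests cells before anaphase. The groups were interphase without IP, interphase IP, mitosis without IP and mitosis IP, with 2 libraries in each, and the IP used an antibody against hnRNP U. No IP with another antibody was analysed here, and RNA held by hnRNP U and RNA that merely stuck to the beads cannot be told apart.

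A ribosome is assembled in the nucleolus from ribosomal RNA and ribosomal proteins, and every growing cell makes the proteins of both subunits in matched amounts. Their mRNAs are short, abundant and spliced, and most begin with a C followed by a stretch of pyrimidines, the 5′ terminal oligopyrimidine (TOP) motif, through which their translation follows the nutrient sensor mTOR. Several ribosomal protein genes carry small nucleolar RNAs (snoRNAs) in their introns, and many have processed pseudogene copies elsewhere in the genome, which makes reads of these families hard to place.

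The sequences below show the annotated start of transcription of some members, picked by hand as examples of strongly depleted mRNAs, spared mRNAs and paralogs. Each line holds 30 bases of the sense strand, 15 before the start and 15 from the start on, read from RefSeq (GRCh38.p14), and the start base is position 16. Capitals mark an unbroken run of at least 5 C or T bases that covers a start base C. Not shown are RPS29 and RPS28, also strongly depleted, and RPL15, RPL4 and RPS4X, also not called lower in at least 1 phase. All of these were without the run. The first 3 mRNAs (RPS21 at chr20:62387088-62387117, plus strand; RPLP1 at chr15:69452803-69452832, plus strand; RPL39 at chrX:119791616-119791645, minus strand) were among the most depleted in both phases.
RPS21: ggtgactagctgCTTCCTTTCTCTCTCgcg
RPLP1: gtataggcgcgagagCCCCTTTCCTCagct
RPL39: ttcttccgccagCTTCCCTCCTCTTCCTTT

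The next 5 were not called lower in at least 1 phase. RPS6 lies at chr9:19380222-19380251 (minus strand), RPS23 at chr5:82278340-82278369 (minus), RPS3A at chr4:151099613-151099642 (plus), RPL22 at chr1:6199581-6199610 (minus) and RPL36A at chrX:101390996-101391025 (plus).
RPS6: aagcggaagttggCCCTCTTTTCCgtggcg
RPS23: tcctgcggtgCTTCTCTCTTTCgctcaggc
RPS3A: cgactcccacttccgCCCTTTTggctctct
RPL22: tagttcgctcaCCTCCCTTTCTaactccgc
RPL36A: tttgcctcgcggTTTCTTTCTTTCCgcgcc

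The last 3 are genes named as paralogs. RPL22L1 (chr3:170870181-170870210, minus strand) has the run. RPS27L (chr15:63157463-63157492, minus strand) and RPL7L1 (chr6:42879601-42879630, plus strand) do not have it at the annotated start.
RPL22L1: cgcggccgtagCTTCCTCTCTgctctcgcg
RPS27L: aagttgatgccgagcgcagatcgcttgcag
RPL7L1: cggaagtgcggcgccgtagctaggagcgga

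Of the 65 members with a RefSeq start, 48 had this run, which is 73.8%, against 9.14% of the 27305 genes with an entry and 11.5% of the 9858 genes of the table with an entry. Only the sense strand at the start was read, and a match of letters is a description of the annotated start.

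The 8 libraries differed in ways that bear on these genes. Values are in FPKM, which divides fragments by the length of the transcript and the size of the library, and the fragments per library are unknown. Relative depth, read from the smallest steps between low values, was 0.639 at the lowest and 1.188 at the highest with interphase without IP replicate 1 as 1, and both extremes were mitotic IP libraries. The 10 most abundant genes held 12.4% to 20.6% of all FPKM in IP libraries and 58.4% to 63.0% in the rest. Genes of mitosis (CCNB1, PLK1, CDC20, AURKA, TOP2A and CENPF) summed to 142 and 146 FPKM in interphase and 562 and 595 FPKM in mitosis without IP, in the direction of the labels. Of 10 markers of mature retinal pigment epithelium, 4 were in the table and together reached 11.6 to 18.6 FPKM, while RPE65, RLBP1, BEST1, TYR, TTR and SERPINF1 were not among its genes. The mesenchymal markers VIM, COL1A1 and FN1 summed to 1464 to 2176 FPKM in the libraries without IP, and COL1A2 was not among the genes of the table. The epithelial markers KRT8 and KRT18 summed to 94.8 to 122 FPKM in the same libraries, and CDH1 was not among the genes. The mRNA of hnRNP U itself, HNRNPU, stood at 31.7 and 32.4 FPKM in interphase without IP and 59.5 in each interphase IP library. In mitosis it stood at 46.2 and 47.2 FPKM without IP and 47.6 and 54.4 in the IP, and its level is no check of the recovered protein. The labels do not say that replicates came from separate cultures, so the p-values measure the spread between these libraries, which may be technical.

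The first comparison asked how ribosomal protein mRNAs fared in the hnRNP U IP of interphase cells. They were depleted as a group: the FPKM of all members summed to 40729 and 47774 without IP against 8030 and 9904 with it. The median member stood at 358 FPKM without and 70.3 FPKM with IP. At a limma adjusted p below 0.05 over the whole table, 72 members were lower in the IP, 2 were higher (RPL22 and RPL7L1) and 8 were not called. Of all genes, 37.0% were called lower and 37.6% higher, and the median IP effect of all genes was 0.02. The IP effect, the difference in log2(FPKM + 1) between IP and no IP, had a median of -2.31 over the members, with quartiles of -2.98 and -1.72. Both IP libraries lay below both libraries without IP for 74 members, against 42.8% of all genes. In bulk RNA on a relative scale, a lower FPKM in the IP means fewer fragments for the transcript's length and the library's size. It is not a share of all FPKM, which summed to 1087270 and 1138350 without IP against 349389 and 321539 with it. With the 10 most abundant genes left out, members held 9.89% and 11.3% of FPKM without IP against 2.82% and 3.52% with it. No setting rescaled the values to the sum of all FPKM. Between the phases, fewer cells that carry an mRNA and less of it per cell cannot be told apart.

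The median depletion of the 2 subunits was close in size. The large subunit members summed to 23912 and 27622 FPKM in interphase without IP and to 4698 and 5854 FPKM in the IP, and the small subunit members to 16817 and 20152 FPKM and to 3331 and 4050 FPKM. In interphase 44 of 51 large subunit and 28 of 31 small subunit members were lower. The median IP effect was -2.31 for the large subunit (-2.30 and -2.33 in the 2 replicate pairs) and -2.41 for the small subunit (-2.34 and -2.47). The quartiles were -2.92 and -1.27 for the large and -3.21 and -2.01 for the small subunit, so the subunits overlapped over most of their range. Members are not replicates, and no test was made between the subunits. Both called increases, RPL22 and RPL7L1, were counted with the large subunit by symbol, and the call of RPL22 depended on the libraries used, as given below.

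**Figure D1:**
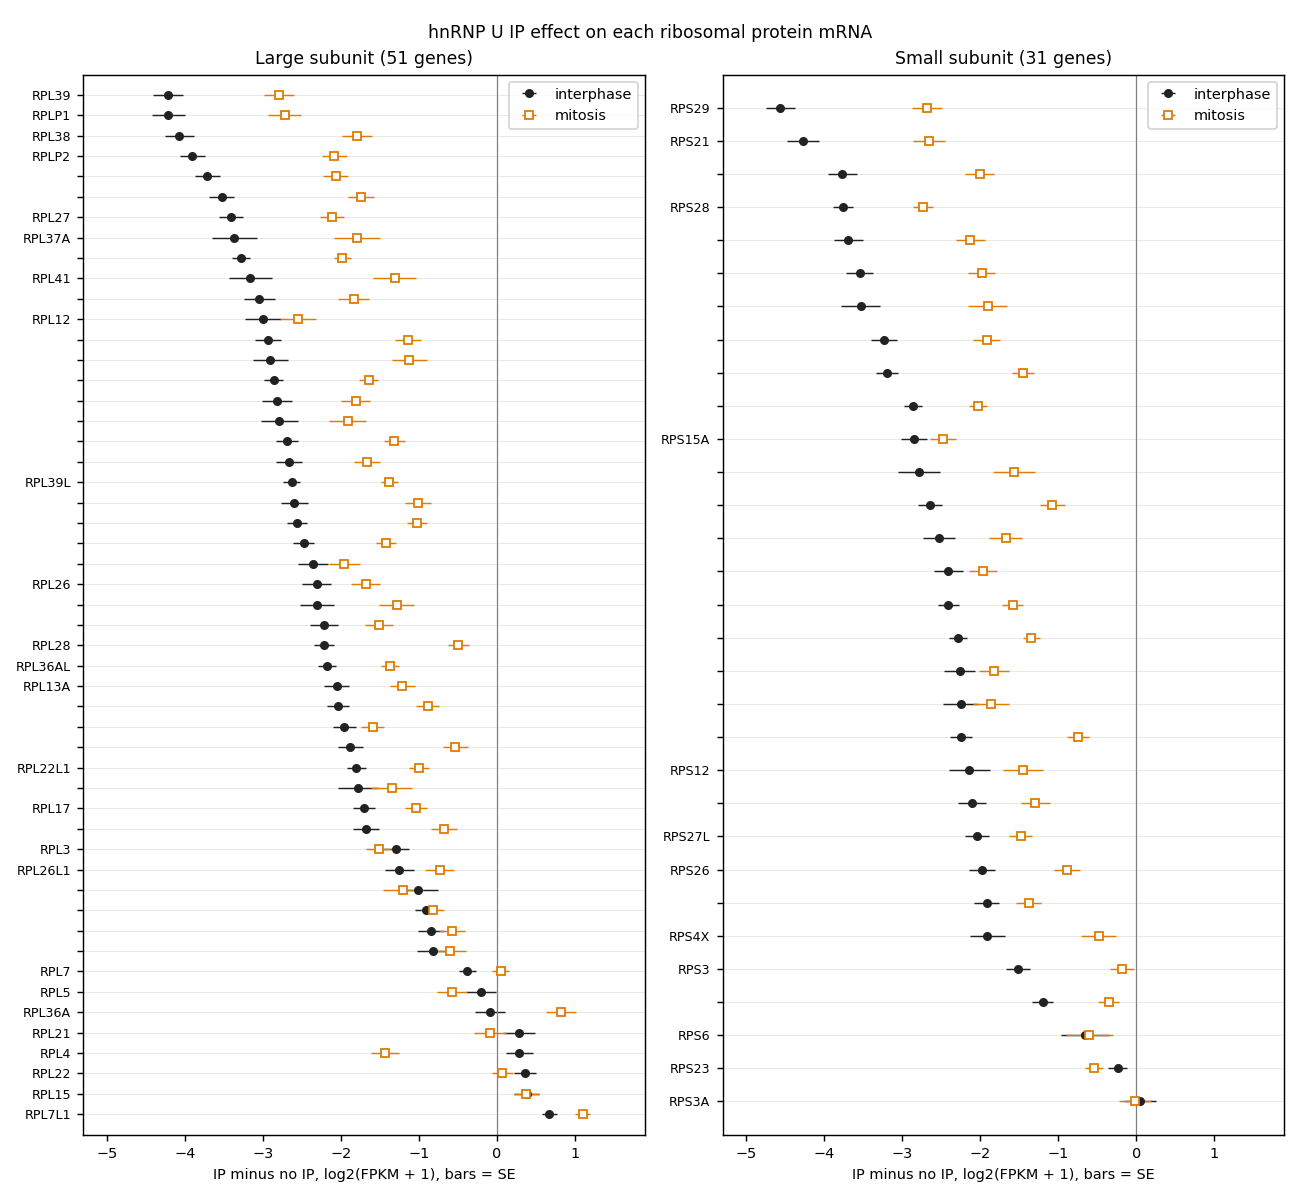
IP effect of each ribosomal protein mRNA, IP minus no IP in log2(FPKM + 1), with its standard error from limma, in interphase (filled circles) and mitosis (open squares), large subunit left and small subunit right, sorted by the interphase effect, with symbols for members chosen by the rule for named genes. Most members lie left of 0 in both phases, from RPS29 at -4.56 in interphase to RPL7L1 at 0.67, and most squares lie nearer to 0 than the circles.

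The strongest depletion in interphase was that of RPS29, a zinc-binding protein of the small subunit head. It measured 1444 and 1764 FPKM without IP against 66.2 and 67.2 FPKM with IP, so the groups lay far apart and its mean was 24.0-fold lower. Its IP effect was -4.56 (SE 0.19, limma adjusted p 3.14e-07). RPS21, also of the small subunit, fell from 790 and 877 FPKM to 38.1 and 46.6 FPKM, a log2 change of -4.27 (SE 0.21, limma adjusted p 5.26e-07). RPL39, a very small basic protein that lines the exit tunnel of the large subunit, measured 480.4 and 652 FPKM without IP against 26.5 and 32.2 FPKM with IP, an effect of -4.22. The replicates of RPL39 without IP differed from each other by more than those of RPS21, but both remained far above the IP libraries. RPLP1 and RPLP2, the acidic proteins of the ribosomal stalk that recruits translation factors, were also among the 4 most depleted members of the large subunit. RPLP1 went from 903 and 900.2 FPKM to 46.3 and 49.0 FPKM, an effect of -4.21 (SE 0.21), and RPLP2 from 909.6 and 955 FPKM to 56.9 and 66.0 FPKM, an effect of -3.90 (SE 0.16). RPL38, known for its part in the translation of developmental mRNAs, went from 1170.2 and 1409 FPKM to 68.7 and 82.9 FPKM, 17.0-fold lower by the mean. The third stalk protein, RPLP0, which anchors the acidic proteins to the subunit, had an IP effect of -2.91 (SE 0.22). RPS28, of the small subunit, went from 194 and 207 FPKM to 12.2 and 15.8 FPKM, an effect of -3.76 (SE 0.13). With length and GC trends removed, using the transcript inside the file's interval, the interphase effects were smaller but still called lower, at -2.76 for RPS21, -2.27 for RPLP1, -1.79 for RPLP2 and -2.59 for RPL38, and with the longest transcript RPS28 had -2.01. In each of these members the IP libraries lay below the libraries without IP by more than the difference between replicates.

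In mitosis the same comparison again found most members depleted, to a smaller extent. Their FPKM summed to 29033 and 30237 without IP and to 10940 and 10390 in the IP, and the median member stood at 232 FPKM without IP against 91.0 FPKM with IP. All FPKM summed to 1249970 and 1017310 without IP against 459661 and 379709 with it. With the 10 most abundant genes left out, members held 6.02% and 7.15% of FPKM without IP against 3.00% and 3.18% with it. With limma, 72 members were lower, 2 were higher (RPL36A and RPL7L1) and 8 were not called, where 31.7% of all genes were called lower and 32.8% higher. The median IP effect was -1.40 over the members and 0.01 over all genes. Both IP libraries lay below both libraries without IP for 75 members, against 40.1% of all genes. By subunit, 45 of 51 large and 27 of 31 small subunit members were lower, with medians of -1.32 and -1.57. The large subunit summed to 16838 and 17626 FPKM without IP against 6310 and 6045 FPKM with IP, and the small subunit to 12194 and 12611 FPKM and to 4630 and 4346 FPKM. Members called lower in both phases numbered 69.

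Of the 8 most depleted members in mitosis (4 of each subunit), 5 were also among the 8 of interphase. RPL39 measured 316 and 393 FPKM without IP against 45.9 and 54.7 FPKM with IP, an effect of -2.79 (SE 0.19, limma adjusted p 8.96e-06). RPS28 fell from 159 and 148 FPKM to 22.5 and 22.1 FPKM, an effect of -2.73 (SE 0.13). The replicates of RPS28 in the IP differed by less than 1 FPKM. RPLP1 (-2.72), RPS29 (-2.68) and RPS21 (-2.66) followed. RPS29 stood at 739 and 769 FPKM without IP and at 135 and 101 FPKM in the IP, which is 6.38-fold lower by the mean. The others were RPL12, a stalk base protein, at -2.55 (SE 0.23), RPS15A at -2.48 (SE 0.17) and RPL27 at -2.12 (SE 0.15). RPL12 went from 401 and 453 FPKM to 68.9 and 75.1 FPKM, and in interphase from 380.4 and 510.3 FPKM to 42.8 and 68.9 FPKM. RPL12 and RPS15A were among the 27 members whose IP effect was not called different between the phases, with differences of 0.45 (SE 0.32) and 0.38 (SE 0.23). Without the second interphase IP replicate RPL12 was called, with a difference of 0.78 and an adjusted p of 0.0487.

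**Figure D2:**
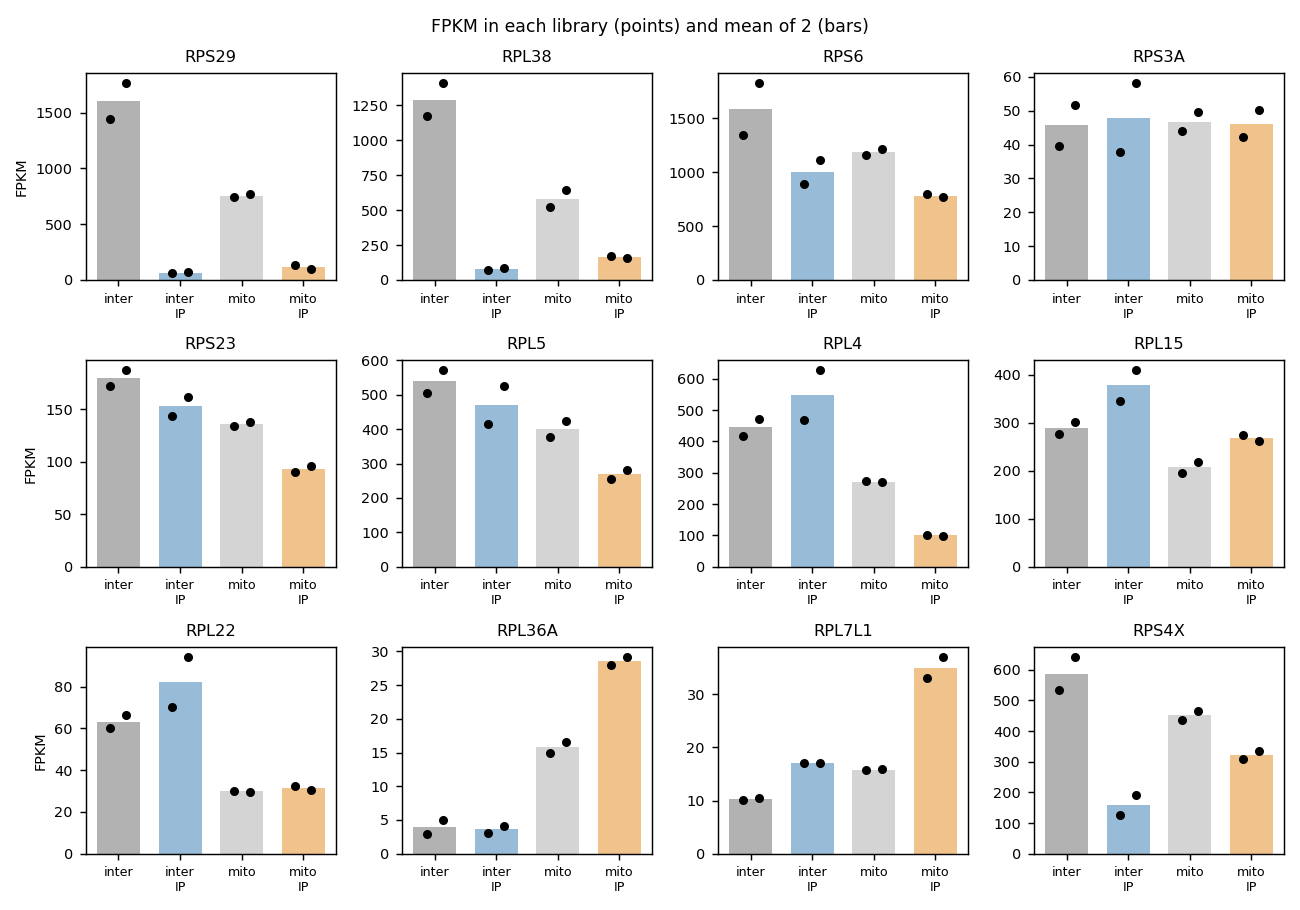
FPKM of 12 members in each library (points) and the mean of each group of 2 (bars), for interphase and mitosis without IP and with IP, each panel on its own linear axis from 0. RPS29 and RPL38 are strongly depleted members, and RPS6, RPS3A, RPS23, RPL5, RPL15 and RPL22 are spared or weakly changed ones. RPL4, RPL36A, RPL7L1 and RPS4X had IP effects called different between the phases with all libraries. The calls of RPL36A and RPL7L1 depended on the libraries and settings used.

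In all, 13 members were not called lower in at least 1 phase, and 7 of them in neither phase: RPL15, RPL21, RPL22, RPL36A, RPL7L1, RPS3A and RPS6. RPS3A, a small subunit protein of the mRNA exit side, showed no called change with the IP or between the phases on the deposited scale. It measured 39.7 and 51.7 FPKM in interphase without IP and 37.7 and 58.2 FPKM in the IP. Its mitotic values were 44.0 and 49.5 FPKM without IP against 42.2 and 50.2 FPKM with IP. The 4 groups overlapped throughout, and its IP effects were 0.05 (SE 0.21) and -0.02 (SE 0.21). An effect in either direction as small as this SE was not detectable. With length and GC trends removed, using the transcript inside the interval, RPS3A was called higher in interphase (0.48, adjusted p 0.0468).

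RPS6, the small subunit protein phosphorylated by S6 kinase downstream of mTOR, was the most abundant of the members that were not called. It measured 1346 and 1827 FPKM in interphase without IP and 892 and 1115 FPKM in the IP. In mitosis it stood at 1158 and 1217 FPKM without IP against 794 and 772 FPKM with IP. The groups did not overlap in either phase, but the effects of -0.65 and -0.60 had an SE of 0.31 each, with limma adjusted p of 0.0806 and 0.116. The fit gives abundant genes a larger SE through its trend, and without that trend its adjusted p values were 0.0065 (interphase) and 0.012 (mitosis). With the trends of the longest transcript removed, RPS6 was called lower in mitosis (-0.71, adjusted p 0.033). Its mean was 1.58-fold and 1.52-fold lower in the IP, against 24.0-fold and 6.38-fold for RPS29, which had a similar level in interphase without IP.

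RPL15, a core protein of the large subunit, was higher in the IP in every library, without a call. It measured 277 and 302 FPKM in interphase without IP and 345 and 410.2 FPKM in the IP, and 196 and 219 FPKM and 276 and 263 FPKM in mitosis. The groups did not overlap in either phase, and both effects were 0.38 (SE 0.16), with limma adjusted p of 0.0565 and 0.0658. Without the trend the adjusted p was 0.0188 and 0.0229, with median centring 0.0221 and 0.0346, and without the first interphase IP replicate 0.027 and 0.0413. Without the second interphase IP replicate it was 0.0412 in mitosis. Quantile normalization moved the effects most, to 1.44 (adjusted p 0.000133) and 0.75 (0.00864). The interval of RPL15 in the file is longer than the annotated gene and overlaps another gene of the table.

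RPL22, a large subunit protein that also binds viral and cellular RNAs, measured 60.1 and 66.5 FPKM in interphase without IP and 70.4 and 94.3 FPKM in the IP. Its IP effect of 0.36 (SE 0.14, limma adjusted p 0.0402) was called higher. The call depended on the libraries used, since it held in 1 of the 8 fits that each left out a library, the one without the first interphase IP replicate. In the other fits the adjusted p ran from 0.0501, without the second mitotic IP replicate, to 0.264, without the second interphase IP replicate. In mitosis RPL22 measured 30.1 and 29.6 FPKM without IP against 32.2 and 30.5 FPKM with IP, an effect of 0.07 (SE 0.14, limma adjusted p 0.684). With the length and GC trends removed, using the transcript inside the file's interval, the mitotic effect of RPL22 was -0.34 (adjusted p 0.0441) and its interphase effect 0.05 (adjusted p 0.74), while the longest transcript gave 0.72 in interphase (adjusted p 0.00121). Without the first interphase IP replicate its effect was called more negative in mitosis, with a difference of -0.50 and an adjusted p of 0.0277, and so it was after quantile normalization (-0.58, adjusted p 0.0345) and with the trends of the longest transcript removed (-0.63, adjusted p 0.0217).

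RPL21 could not be read as the ribosomal protein gene. The interval under this name in the file lies at chr10:120354660-120355223, while the annotated RPL21 gene (GENCODE release 29, same assembly) lies at chr13:27251309-27256691. Its values ran from 0.14 to 1.0 FPKM over the 8 libraries, and no comparison of its IP was called. Without the first interphase library without IP it was called higher in interphase, with an effect of 0.57 and an adjusted p of 0.0291.

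A further 3 members, RPL4, RPL5 and RPS23, were called lower in mitosis but not in interphase. The difference between phases was not called for RPL5 (-0.38, limma adjusted p 0.297) or for RPS23. RPL4, a protein with a long extension into the large subunit, had an IP effect called more negative in mitosis than in interphase. In interphase RPL4 measured 418 and 472 FPKM without IP against 469 and 628 FPKM with IP, an effect of 0.29 (SE 0.18, limma adjusted p 0.173). The mitotic libraries gave 274 and 269.6 FPKM without IP against 103 and 97.4 FPKM with IP, an effect of -1.43 (SE 0.18, limma adjusted p 0.000131). The IP libraries were close to or above those without IP in interphase and far below them in mitosis. Without the first interphase IP replicate RPL4 was called higher in interphase, at 0.50 with an adjusted p of 0.0256. It was also called higher there after quantile normalization (1.61, adjusted p 0.000399) and with the trends of the transcript inside the interval removed (1.73, adjusted p 5.86e-05), which left its mitotic effect at -0.71 (adjusted p 0.00827). Its interval overlaps another gene of the table, and the annotated gene, which is longer than that interval, holds 5 snoRNA genes. Their part in these values was not tested.

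RPL5, which binds the 5S ribosomal RNA and with it restrains MDM2, measured 505 and 572 FPKM in interphase without IP and 415 and 524 FPKM in the IP. These groups overlapped, and the effect was -0.20 (SE 0.19, limma adjusted p 0.366). In mitosis it measured 378 and 425 FPKM without IP against 255 and 281 FPKM with IP, an effect of -0.58 (SE 0.19, limma adjusted p 0.0272). That call was lost in each of the 4 fits without a mitotic library, with adjusted p from 0.0516, without the second IP replicate, to 0.15, without the second library without IP. After quantile normalization the effects were 1.06 (adjusted p 0.00396) and 0.10 (0.757), so the direction of RPL5 depended on the scaling. Its interval in the file is 13 times as long as the annotated gene and overlaps 3 other genes. RPL11, the partner of RPL5 in the 5S particle, was depleted in both phases, with effects of -2.31 (SE 0.22) and -1.29 (SE 0.22).

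RPS23, a protein of the decoding centre, measured 172 and 187 FPKM in interphase without IP and 143 and 162 FPKM in the IP, an effect of -0.24 (SE 0.12, limma adjusted p 0.107). In mitosis it fell from 134 and 138 FPKM to 90.5 and 95.6 FPKM, an effect of -0.54 (SE 0.12, limma adjusted p 0.00386). The groups did not overlap in either phase. With the trends of transcript length and GC content removed, using the transcript inside the file's interval, the interphase effect of RPS23 was 0.80 (adjusted p 0.000318) and the mitotic call was lost (-0.18, adjusted p 0.189). With the longest transcript the interphase effect was called lower (-0.55, adjusted p 0.00226), so its direction depended on the transcript chosen.

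The members called lower in interphase but not in mitosis were RPL7, RPS3 and RPS4X. The difference between phases was called for RPS3 and RPS4X but not for RPL7 (0.43, limma adjusted p 0.0511). RPS4X, the copy of RPS4 on the X chromosome, went from 534 and 643 FPKM to 125 and 192 FPKM in the interphase IP, an effect of -1.91 (SE 0.22, limma adjusted p 5.33e-05). Its mitotic values were 436 and 466 FPKM without IP against 310.0 and 336 FPKM with IP, an effect of -0.48 (SE 0.22, limma adjusted p 0.0892). It was called lower in mitosis without either interphase IP replicate, with an adjusted p of 0.0346 without the first and 0.0331 without the second, and with the trends of the longest transcript removed (-0.61, adjusted p 0.0205). RPS3, which sits at the mRNA entry and also acts in DNA repair, fell from 326 and 359 FPKM to 107 and 133 FPKM in interphase, an effect of -1.51 (SE 0.15). In mitosis it stood at 259 FPKM in each library without IP and 229 FPKM in each IP library, an effect of -0.18 (SE 0.15, limma adjusted p 0.334). With the trends of the transcript inside the interval removed, RPS3 was called lower in mitosis (-0.43, adjusted p 0.0232). RPL7 was listed near 1 FPKM, far below most members, at 0.955 and 1.05 FPKM in interphase without IP and 0.612 and 0.47 FPKM in the IP. Its interphase effect of -0.38 (limma adjusted p 0.0119) was lost without the second library without IP (adjusted p 0.0608) and without the second IP replicate (0.0765). With median centring its adjusted p was 0.0576 and after quantile normalization 0.0653. Removal of the length and GC trends gave RPL7 an interphase effect of -0.33 (adjusted p 0.0595) with the longest transcript and of 0.33 (adjusted p 0.0375) with the one inside the interval, and the latter gave 0.34 in mitosis (adjusted p 0.0339).

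Of 6 members named as paralogs of another ribosomal protein gene, 5 were lower in both phases and 1, RPL7L1, was higher in both. RPL7L1, a nucleolar protein related to RPL7, measured 10.2 and 10.5 FPKM in interphase without IP and 17.0 and 17.1 FPKM in the IP. The mitotic libraries gave 15.7 and 15.9 FPKM without IP against 33.0 and 37.1 FPKM with IP. The replicates lay close together and the groups did not overlap, with IP effects of 0.67 (SE 0.10, limma adjusted p 0.000198) and 1.10 (SE 0.10, limma adjusted p 2.22e-05). Both calls were kept in each of the 8 fits that left out a library. With length and GC trends removed the interphase effect of RPL7L1 was 0.27 (longest transcript) or 1.32 (transcript inside the interval), called higher with both. Its interval overlaps no other gene of the table.

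RPL39L and RPL26L1 were lower in the IP like the genes they are named after, while RPL22L1 and RPL36AL were lower beside namesakes that were not. RPL22L1 fell from 81.9 and 86.0 FPKM to 23.7 and 23.0 FPKM in interphase, an effect of -1.80 (SE 0.13), while RPL22 had 0.36. In mitosis RPL22L1 had an effect of -1.0 (SE 0.13). RPL36AL fell from 198 and 213 FPKM to 43.3 and 45.9 FPKM, an effect of -2.18 (SE 0.12), and by 1.38 on the log2 scale in mitosis. RPL36A itself measured 2.99 and 4.97 FPKM in interphase without IP and 3.08 and 4.17 FPKM in the IP, an effect of -0.09 (SE 0.19). In mitosis RPL36A measured 14.9 and 16.6 FPKM without IP against 28.1 and 29.2 FPKM with IP, an effect of 0.82 (SE 0.19, limma adjusted p 0.00485). Its interval in the file is 4.36 times as long as the annotated gene and overlaps 2 other genes, and their part in these values was not tested. RPL39L fell from 57.8 and 59.1 FPKM to 8.43 and 8.75 FPKM in interphase, an effect of -2.63 (SE 0.11), beside -4.22 for RPL39. With trends removed RPL39L had -1.14 (longest transcript) and -1.49 (transcript inside the interval), both called lower. RPL26L1 had effects of -1.25 (SE 0.18) and -0.73 (SE 0.18), beside -2.31 and -1.68 for RPL26. The mitotic call of RPL26L1 was lost without the second mitotic IP replicate (effect -0.54, adjusted p 0.0504). Both calls of RPL26L1 were lost with the trends of the longest transcript removed, at -0.06 in interphase (adjusted p 0.776) and -0.28 in mitosis (adjusted p 0.167). RPS27L fell from 262 and 273 FPKM to 70.2 and 58.8 FPKM in interphase, an effect of -2.04 (SE 0.15), and had -1.48 (SE 0.15) in mitosis. RPS27, RPL3L and RPL10L, which the annotation holds under names that fit the rule, were not analysed here.

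The next comparison asked whether the IP effect differed between mitosis and interphase, as the interaction in the same fit. It was less negative or more positive in mitosis for 54 members and more negative for 1, RPL4, and 27 were not called. Over all genes 27.2% were called in the first direction and 19.9% in the second, with a median difference of 0.07, against a median of 0.97 for the members (0.99 for the large and 0.94 for the small subunit). By sign alone the difference was above 0 in 73 members. The called counts by subunit were 33 of 51 and 21 of 31. The count was smaller with the trends of transcript length and GC content removed. Then 29 of 76 members were called in this direction using the transcript inside the file's interval, and 33 of 81 with the longest annotated transcript. The shares of all genes under these settings are not given here, so these counts cannot be set against them. Both trend removals and quantile normalization also called the effect more negative in mitosis for RPL3 (-0.96 to -0.89, adjusted p 0.00839 to 0.0142) and RPL5 (-0.97 to -0.79, adjusted p 0.0202 to 0.0496). RPS23 was so called after quantile normalization (-0.94, adjusted p 0.00302) and with the transcript inside the interval (-0.98, adjusted p 0.00169).

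RPL38 had the largest difference, 2.28 (SE 0.27, limma adjusted p 0.000264). It measured 520.4 and 644 FPKM in mitosis without IP and 174 and 159 FPKM in the IP, an effect of -1.79, beside -4.07 in interphase. RPS29 followed with 1.88 (SE 0.27). RPL41, a peptide of few residues, had 1.85 (SE 0.38) at low values: 18.9 and 24.9 FPKM against 2.51 and 0.843 FPKM in interphase, and 4.06 in both libraries against 1.24 and 0.854 FPKM in mitosis. RPL41 was thus already lower in mitosis without IP. RPL28 measured 51.4 and 66.7 FPKM against 11.3 and 12.4 FPKM in interphase, and 125 and 118 FPKM against 84.6 and 87.3 FPKM in mitosis. Its difference was 1.72 (SE 0.18), from an effect of -2.21 to one of -0.49 (SE 0.13), and the mitotic call was lost without the first mitotic library without IP (effect -0.46, adjusted p 0.0511). With length and GC trends removed, using the transcript inside the interval, the mitotic effect of RPL28 was 0.19 (adjusted p 0.239), its interphase effect -0.58 (adjusted p 0.00521) and its difference 0.78 (adjusted p 0.011). With the longest transcript the mitotic call was lost too (-0.19, adjusted p 0.258), and the difference of RPL41 was 1.11 (adjusted p 0.0263).

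For RPL4 the difference had the opposite sign, -1.72 (SE 0.25, limma adjusted p 0.000773), and it was called in each of the 8 fits that left out a library. The smallest called differences in the other direction were 0.43 for RPL7L1 and 0.67 for RPL17. That of RPL7L1 (SE 0.14, limma adjusted p 0.03) held in 1 of those 8 fits, the one without the first mitotic IP replicate, and had adjusted p of 0.054 to 0.0991 in the others. It was -0.029 (adjusted p 0.888) with the trends of the transcript inside the interval removed and 0.27 (adjusted p 0.125) after quantile normalization. That of RPL17, a protein at the tunnel exit, (SE 0.21, limma adjusted p 0.0266) was lost without either mitotic library without IP, without the first mitotic IP replicate, without the first interphase IP replicate and without the second interphase library without IP, with adjusted p of 0.0636 to 0.0893. It fell further, and lost its call, with trends removed (0.10, adjusted p 0.703, with the longest transcript and 0.26, adjusted p 0.299, with the other) and after quantile normalization (0.40, adjusted p 0.119). For RPL36A the difference of 0.91 (SE 0.27, limma adjusted p 0.0236) was lost in 4 of the 8 fits, with adjusted p of 0.0566, without the second mitotic IP replicate, to 0.0764, without the first interphase IP replicate; the others were those without the second interphase library without IP and without the first mitotic library without IP. It was also lost with the trends of the transcript inside the interval removed (0.45, adjusted p 0.173) and after quantile normalization (0.59, adjusted p 0.143).

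**Figure D3:**
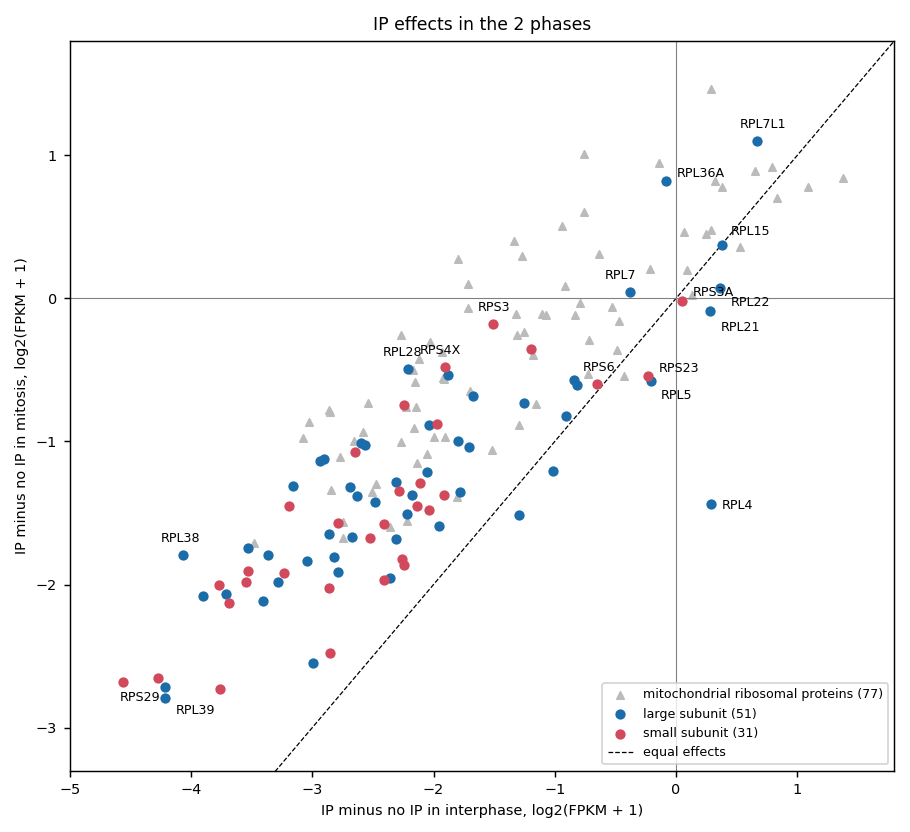
IP effect in mitosis (vertical) against interphase (horizontal), each in log2(FPKM + 1), for large subunit (blue), small subunit (red) and mitochondrial ribosomal protein genes (grey triangles); the dashed line marks equal effects. Most cytosolic members lie above the line, RPL4 lies far below it at 0.29 and -1.43, and the mitochondrial genes lie above most cytosolic members.

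The difference between phases came from both sides of the ratio. Without IP, 39 members were lower in mitosis than in interphase and 4 were higher, where 25.5% of all genes were lower and 26.2% higher, with a median change of -0.43 for the members and -0.0023 for all genes. In the IP, 42 members were higher in mitosis and 8 were lower, where 35.8% of all genes were higher and 25.6% lower, with a median of 0.52 for the members and 0.08 for all genes. These comparisons share libraries with the IP comparisons and with the interaction. The count without IP depended on single libraries: 43 members were called in either direction with all libraries, 21 without the second interphase library and 25 without the first mitotic library. With the length and GC trends removed, using the transcript inside the file's interval, 28 were called.

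The 4 members higher in mitosis without IP were RPL36A (1.78, SE 0.19), RPL28 (1.04, SE 0.13), RPL7L1 (0.57, SE 0.10) and RPL39L (0.44, SE 0.11), and each of them was also higher in the mitotic IP. RPL39L measured 57.8 and 59.1 FPKM in interphase and 82.6 and 77.1 FPKM in mitosis, and its call without IP was lost without the first interphase library (adjusted p 0.0523) and without the first mitotic library (0.0601). Its paralog RPL39 moved the other way, at -0.67 (SE 0.19, limma adjusted p 0.0174), a call lost without the second interphase library (-0.45, adjusted p 0.124) or the first mitotic library (-0.51, adjusted p 0.114), or with the trends of the longest transcript removed (-0.43, adjusted p 0.0632). The largest decreases without IP were those of RPL41 (-2.17, SE 0.27), RPL13A (-1.51, SE 0.16) and RPL38 (-1.15, SE 0.19). RPL13A, which also takes part in a translational silencing complex, went from 559 and 619.9 FPKM to 212 and 201 FPKM. RPL22 fell from 60.1 and 66.5 FPKM to 30.1 and 29.6 FPKM, a change of -1.06 (SE 0.14).

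In the IP, the largest increases toward mitosis were those of RPL28 (2.76, SE 0.13), RPL36A (2.69, SE 0.19) and RPL39L (1.69, SE 0.11). RPL28 rose from 11.3 and 12.4 FPKM to 84.6 and 87.3 FPKM. The largest decreases were those of RPL4 (-2.43, SE 0.18), RPL22 (-1.35, SE 0.14) and RPL3 (-1.26, SE 0.16). RPL3, a protein close to the peptidyl transferase centre, measured 105 and 143 FPKM in the interphase IP and 53.6 and 48.0 FPKM in the mitotic IP, beside 283 and 324 FPKM and 151 and 143 FPKM without IP. RPL3 was lower in mitosis both with and without IP, and its IP effects were -1.29 (SE 0.16) and -1.52 (SE 0.16). The interphase call was lost with either trend removal, each at -0.14 (adjusted p 0.485 with the longest transcript and 0.482 with the other).

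**Figure D4:**
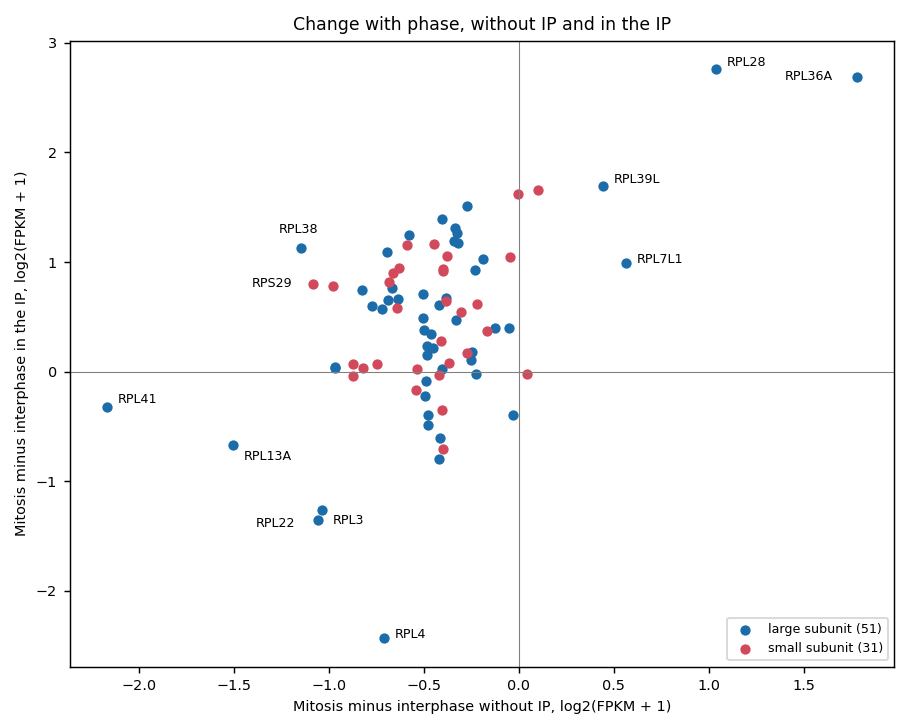
Change from interphase to mitosis in the IP (vertical) against the change without IP (horizontal), both in log2(FPKM + 1), for large subunit (blue) and small subunit (red) members. Most points lie left of 0 and above 0, RPL28, RPL36A, RPL39L and RPL7L1 are higher on both axes, and RPL4 stands lowest at -2.43 in the IP.

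The mRNAs of FAU and GNB2L1, which encode proteins of the same particles under other symbols, were lower in the interphase IP too. FAU, which encodes RPS30 fused to a ubiquitin-like protein, went from 334 and 342 FPKM to 33.7 and 32.4 FPKM in interphase and from 217 and 225 FPKM to 72.9 and 66.9 FPKM in mitosis, 10.2-fold and 3.16-fold lower by the mean. GNB2L1 (RACK1), a scaffold of the small subunit, went from 978 and 1134 FPKM to 247 and 342 FPKM in interphase, an effect of -1.86 (SE 0.23). In mitosis it measured 612 and 603 FPKM without IP against 436 and 511 FPKM with IP, an effect of -0.36 (SE 0.23, limma adjusted p 0.202).

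Other mRNAs that are known to carry the TOP motif were called in both directions, in mitosis at shares near those of all genes. Of 17 in the table (elongation factors such as EEF1A1 and EEF2, subunits of EIF3, TPT1, PABPC1 and others, with FAU and GNB2L1 among them), 10 were lower and 4 higher in the interphase IP, with a median of -0.64, against 37.0% and 37.6% of all genes. In mitosis 5 were lower and 5 higher (29.4% each, against 31.7% and 32.8% of all genes), with a median of -0.24. Of 35 ribosome assembly factors, 20 were lower and 5 higher in interphase, with a median of -0.58, and 24 and 5 in mitosis, with a median of -1.02. Without IP, 22 of these factors (62.9%) were higher in mitosis and 4 (11.4%) lower, where 26.2% of all genes were higher and 25.5% lower. Of the 82 ribosomal protein genes, 4 (4.88%) were higher and 39 (47.6%) lower, counts that depended on single libraries. Of 23 genes of the table named as ribosomal protein pseudogenes, 16 were lower and 3 higher in the interphase IP, and 11 and 3 in mitosis, with medians of -0.88 and -0.54.

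The mitochondrial ribosomal protein genes, which are encoded in the nucleus and make the ribosome of the mitochondrion, are the most like set by function. Of 77, 61 were lower and 9 higher in the interphase IP, with a median of -1.33, and 41 and 17 in mitosis, with a median of -0.36. The difference between phases was larger than 0 and called for 59 of 77, with a median of 1.05, close to the 0.97 of the cytosolic members. Without IP, 38 were lower in mitosis and 2 higher. The shares of all genes were 37.0% lower and 37.6% higher in the interphase IP, and 31.7% and 32.8% in mitosis. They were 27.2% for a difference called above 0, and 25.5% lower and 26.2% higher in mitosis without IP. The 2 sets were not tested against each other.

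Several features of the transcripts moved with the depletion. The transcripts of members inside the file's intervals had a median length of 913 nt (76 members), those of the mitochondrial set 1203 nt (70 genes) and those of all genes 2919 nt. The IP effect of all genes followed length: the median was -0.91 in interphase for the 2520 genes with the shortest transcripts (64 to 1601 nt) and 0.82 for the 2518 with the longest (5093 nt or more). In mitosis these medians were -0.33 and 0.23. Within the members, the 30 shorter than 800 nt had median effects of -2.79 and -1.67, the 27 from 800 nt to below 1200 nt -2.24 and -1.21, and the 19 of 1200 nt or more -2.41 and -1.32. With the trends of length and GC content removed, the medians were -1.43 for the large and -1.62 for the small subunit in interphase and -0.96 and -1.03 in mitosis, and 60 and 63 of 76 members were lower.

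Across the members, as a description over genes that share libraries, the interphase IP effect had a Spearman rho of -0.44 with GC content (76 members), 0.27 with transcript length, 0.38 with the number of exons and -0.49 with the level in interphase without IP (82 members). The level enters the IP effect itself. For the mitotic effect the same values were -0.21, 0.29, 0.40 and -0.51, and the difference between phases had a rho of 0.51 with GC content. These used the transcript inside the file's interval. With the longest annotated transcript (81 members) the rho with length was 0.09 in interphase and 0.08 in mitosis. With its GC content it was -0.48 and -0.29.

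The pyrimidine run at the annotated start did not separate depleted from spared members. Of the 48 members with the run, 43 were lower in each phase, with median effects of -2.31 and -1.38. Of the 17 without it, 14 were lower in each phase, with medians of -1.91 and -1.21. RPS29 and RPS28, among the most depleted, were without it at the annotated start, while RPS6, RPS23, RPS3A, RPL22 and RPL36A had it. The class rests on the annotated start base. RPL19 had a run of 12 bases but was classed as without it, as its start base there is not C. Starts other than the annotated ones were not read, so members classed as without the run may still carry the motif. Of the 10 members with a RefSeq start that were not called lower in at least 1 phase, 6 had the run.

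Members with and without snoRNA genes or overlapping genes were depleted to a similar median in mitosis. In interphase the median was less negative for members with them, and no test was made. Of 27 matched members that host an annotated snoRNA gene, 24 were lower in interphase and 25 in mitosis, with medians of -2.14 and -1.43. Of 54 without one, 48 and 47 were lower, with medians of -2.47 and -1.42. Of 53 members whose interval overlaps no other gene of the table, 47 and 46 were lower, and the median was -2.53 in interphase and -1.43 in mitosis. Of the 29 that overlap, 25 and 26 were lower, with medians of -2.14 and -1.38.

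The level of members without IP spanned several orders of magnitude. How reads of near-identical copies were placed is not given in the sources used here, and its part in these levels was not tested. RPL37A was the most abundant over both phases, at 3270.2 and 3665 FPKM in interphase and 1961 and 1944 FPKM in mitosis without IP. In the IP it measured 315 and 356 FPKM and 644 and 492 FPKM, with effects of -3.37 (SE 0.29) and -1.79 (SE 0.29), of which the mitotic call was lost after quantile normalization (-0.77, adjusted p 0.0757). RPS6 and RPS12 came next. RPS12 measured 1443 and 1556 FPKM without IP against 312 and 369.9 FPKM with IP in interphase, an effect of -2.14 (SE 0.26) that was -0.81 with the trends of the longest transcript removed and -0.76 after quantile normalization, called lower in both. At the other end stood RPL21 and RPL7, described above, and RPS26, at 5.14 and 6.68 FPKM in interphase without IP and 0.605 and 0.897 FPKM in the IP, an effect of -1.98 (SE 0.17) that is understated by the added 1 FPKM. In interphase without IP 63 members averaged at least 100 FPKM and 5 less than 10 FPKM. The values of the scarce ones are uncertain.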

How the data were processed

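RNA of cells without IP and of hnRNP U precipitates was depleted of ribosomal RNA and sequenced with a directional kit, per the labels' protocols. The authors deposited FPKM per gene and library on build hg38, per the file headers; TopHat and StringTie are named in the submitters' processing notes. The strand setting of counting and the placement of shared reads are not given in the sources used here. The files hold FPKM and no counts, so no count model was used, and no confidence interval or floor was computed because the depth is unknown.

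All 13471 genes entered limma 3.58.1 in R 4.3.3 (lmFit, eBayes with trend) on log2(FPKM + 1), with 4 group coefficients, all 8 libraries, 4 residual degrees of freedom and no filter. Fold changes on this scale understate changes of low genes. P-values were adjusted by Benjamini-Hochberg within each of 5 comparisons, and calls needed an adjusted p below 0.05. The analysis was tested on simulated data. Symbols were matched to GENCODE release 29 (97.4% of genes, 81 of 82 members) and RefSeq.

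Genes named are the members not called lower in a phase, the 4 most depleted of each subunit in each phase, the 3 largest and smallest called interactions, the 3 largest called phase changes each way, the 3 most and least abundant members, the paralogs with their namesakes, FAU and GNB2L1, and HNRNPU. Some genes that this rule covers are not reported here. RPL11, RPLP0 and, among other TOP mRNAs, a few names were added after their values were seen. The members, lists and rules were chosen with earlier results of these data known. Alternatives were pseudocount 0.1, a filter of 1 FPKM in 2 libraries, median centring, quantile normalization, removal of length and GC trends, a replicate block, no variance trend and leaving out each library. Removing the trends with the transcript inside the file's interval was added after seeing the data.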

Additional observations from a re-analysis of the deposited data

Results flagged for a closer look

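For 22 of the 37 members named by the rule above, the IP effect differed between mitosis and interphase by the interaction in the limma fit, and 21 of these were less negative or more positive in mitosis. Over the whole table, 47.1% of genes were called in either direction. Some of the 37 were chosen by this same interaction, so their count does not stand for all members. The differences, mitosis minus interphase in log2(FPKM + 1), were 2.28 for RPL38, 1.85 for RPL41, 1.82 for RPLP2, 1.72 for RPL28, 1.58 for RPL37A, 1.5 for RPLP1, 1.43 for RPL39, 1.29 for RPL27, 1.25 for RPL39L, 0.91 for RPL36A, 0.84 for RPL13A, 0.80 for RPL22L1, 0.80 for RPL36AL, 0.67 for RPL17 and 0.43 for RPL7L1 in the large subunit. In the small subunit they were 1.88 for RPS29, 1.61 for RPS21, 1.43 for RPS4X, 1.34 for RPS3, 1.09 for RPS26 and 1.03 for RPS28. RPL4 was the exception, at -1.72. Among members mentioned outside the rule, RPLP0 had 1.78 (limma adjusted p 0.00199), RPL11 1.02 (0.0264) and RPL19 1.00 (0.00824). The call of RPL11 was kept in 1 of the 8 fits that left out a library. The difference of RPL13A was lost without the first mitotic IP replicate (adjusted p 0.053), without the second mitotic library without IP (0.0552) and without the second interphase library without IP (0.0566). It was also lost with trends of length and GC content removed (0.21, adjusted p 0.472, with the longest transcript and 0.086, adjusted p 0.774, with the one inside the interval) and after quantile normalization (0.068, adjusted p 0.831). With the longest transcript the calls of RPS28 (0.04, adjusted p 0.888), RPS26 (0.43, 0.157), RPS21 (0.59, 0.11) and RPL36AL (0.26, 0.209) were lost, and with the other transcript those of RPS26 (0.54, adjusted p 0.113), RPS21 (0.74, 0.059) and RPLP1 (0.64, 0.0589). Quantile normalization ended that of RPL37A (1.21, adjusted p 0.065). The losses of RPL17, RPL36A and RPL7L1 are given with their results.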

How the results depend on the processing

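With 2 libraries a group, unknown depth and FPKM alone, small effects of members could not be resolved, and the values of scarce members, of members with near-identical copies and of members whose interval holds other genes are uncertain. Centring each library on its median added 0.12 to every interphase IP effect and 0.09 to every mitotic one. Shares of all genes called are given for the main fit alone, so counts under other settings stand without them. The counts of members lower in the IP stayed within 1.5 times of 72 under every setting that used the whole set; among the 53 members without overlap they were 47 and 46. The interaction count was 33 with the longest-transcript trend removed and 29 with the other transcript, and the count changed in mitosis without IP was 28 with the latter and 21 to 47 when a library was left out.

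Median IP effects of the large subunit were -2.18 and -1.22 (interphase and mitosis) with median centring, -1.85 and -1.18 with quantile normalization, -1.57 and -1.02 with the longest-transcript trend removed, and -1.43 and -0.96 with the other transcript. For the small subunit they were -2.28 and -1.47, -2.03 and -1.38, -1.89 and -1.27, and -1.62 and -1.03. The small subunit in interphase had -2.53 with a pseudocount of 0.1, and its members without overlap had -2.72 in interphase and -1.75 in mitosis. The large subunit without the paralogs had -2.34 in interphase. Leaving out each library gave -2.46 to -2.16 for the large and -2.55 to -2.27 for the small subunit in interphase, and -1.38 to -1.26 and -1.64 to -1.52 in mitosis.

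The direction turned for 8 values of named members, and the cause was not tested. With the trend of the transcript inside the interval removed, the mitotic IP effect was -0.34 for RPL22 (adjusted p 0.0441) and 0.19 for RPL28 (0.239), the interphase effect was 0.33 for RPL7 (0.0375) and 0.80 for RPS23 (0.000318), and the interaction of RPL7L1 was -0.029 (0.888). After quantile normalization the effects of RPL5 were 1.06 (0.00396) and 0.10 (0.757). With the longest-transcript trend removed, RPS28 in mitosis without IP was 0.13 (0.448). Of the other values of named members, 1051 under other settings and 1090 in fits without a library kept direction and call, 47 and 75 lost the call, and 46 and 19 gained it.

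With the replicate number as a block, 73 members were lower in each IP comparison, 59 had the larger interaction, 52 changed in mitosis without IP and 56 in the IP. RPS6 gained its call in interphase (adjusted p 0.0476), RPS4X in mitosis (0.0366) and RPL15 in both phases as higher (0.0365 and 0.0427). The labels give only a shared number, and deviations of same-numbered libraries correlated at 0.088 to 0.528 across genes between groups. The main fit therefore did not take the numbers as pairs. Same-numbered libraries were set side by side only for the medians by replicate pair, to judge shifts of those medians, and in choosing named genes.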
